A study of Mus musculus with 48 samples.

Results

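Acaca, the gene of cytosolic acetyl-CoA carboxylase, was examined in the nucleus accumbens shell together with 9 other genes of fatty acid synthesis: Acacb, Acly, Fasn, Scd1, Scd2, Srebf1, Acsl3, Elovl5 and Elovl6. These 10 genes were taken by name from a table of 37620 genes, and their 250 exons from a table of 247845 exons. The set was chosen by the Acaca values: its gene value and the use of its last exon differed between the lines in these same libraries. Its differences between lines are therefore given as a description, without a test, and only measures that did not choose it were tested. The mice were HS-CC (heterogeneous stock-collaborative cross), an outbred stock; their ages are not in the labels. They came from generation 4 of selection for high ethanol preference (High) or low ethanol preference (Low). Each line gave 12 females and 12 males, which makes 4 groups, and every mouse was sequenced as 1 library of poly(A) RNA from shell tissue taken by laser microdissection. No group was given as unselected or drug-treated in the labels, and each selection direction was 1 population, so selection and drift cannot be told apart.

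Fatty acid synthesis starts in the cytosol. Acly splits citrate into acetyl-CoA, acetyl-CoA carboxylase turns acetyl-CoA into malonyl-CoA, and the multifunctional enzyme Fasn joins these units into palmitate. Elovl6 and Elovl5 lengthen fatty acids, Scd1 and Scd2 put a double bond into them, Acsl3 activates them as CoA esters, and the transcription factor Srebf1 drives many genes of the pathway. In the brain, glial cells in particular make the fatty acids of membranes and myelin, and Scd2 is the main stearoyl-CoA desaturase there.

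Library totals ran from 13579559 to 14561911 normalised counts, which are read counts that the authors scaled and rounded. All 14 listed medium spiny neuron markers in the gene table were detected in the median library of each group, with summed values of 116995 to 181096. None of the 15 myelin markers passed between lines after adjustment over all genes (limma). Their High minus Low values were all below 0, with a median of -0.208 on the log2 scale. Of the 15 markers, 10 had an unadjusted p under 0.05 (limma), a larger share than the 9.07% of all tested genes. Markers of 1 cell type are measured in the same dissections, so these are not 15 independent observations. The summed value of these 15 markers ran from 9426 to 25171 in High mice and from 13878 to 25594 in Low mice, and none was at 0 in the median library. High male replicate 1 stood apart from the other libraries, and results that rest on it are also given without it. In whole tissue, fewer cells of a type and less RNA per cell cannot be told apart.

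The Acaca result lies in the last exon, so its coding end is shown. On mm9, the build of the deposited tables, the exon starts at position 84213062 of chromosome 11, on the plus strand. In GENCODE M21 on GRCm38 the last exon is at chr11:84399560-84401651 and has 2092 bases, of which 124 are the end of the coding sequence with the stop codon and 1968 are 3′ untranslated. Of the 61 Acaca exon starts listed on mm9, 56 lie at the same distance from the last exon start in that annotation. The coding part, at chr11:84399560-84399683, reads 5′ to 3′ with the stop codon in capitals.
Acaca last exon, coding part: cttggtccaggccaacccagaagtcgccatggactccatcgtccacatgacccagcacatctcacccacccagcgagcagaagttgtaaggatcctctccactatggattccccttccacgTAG
The exon holds AATAAA, the usual polyadenylation signal, 1 time, starting 25 bases before its end. Of its 2068 different words of 25 bases, 101 also occur in another gene's transcripts on either strand. All 101 belong to Gm5182, a gene absent from the deposited gene table. Reads from it could be counted for Acaca, or Acaca reads that match both could have been left out. Over the whole Acaca gene 5924 of 17027 words (34.79%) are shared, 5544 of them with Gm5182, so this uncertainty falls mostly on the exons before the last. It also bears on the levels of the last exon and the other exons compared below, and was not tested. Whether the counting used strand is not stated, so reads from an overlapping antisense transcript cannot be told apart.

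Acaca was higher in the High line, and the difference lay in the last exon. The last exon had 188, 242 and 350 normalised counts in the lowest, median and highest High female, and 153, 194 and 330 in High males. In Low females the corresponding values were 59, 135 and 194, and in Low males 100, 143 and 250. Among females 9 of 12 High mice lay above the highest Low mouse, and among males 3 of 12, so the lines overlapped in both. The median Low mouse had 138, and each of the 24 High mice exceeded it. The means were 228 ± 56.3 in High and 139 ± 43.9 in Low (SD, n = 24 each), a ratio of 1.64. On the log2 scale the difference was 0.75 with a standard error of 0.11 in the fit over all tested exons.

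The other 60 exons together showed no such separation. Their summed value had a lowest, median and highest mouse of 61, 107 and 186 in High females and of 57, 87.5 and 228 in High males. It was 72, 104 and 132 in Low females and 58, 94 and 158 in Low males. The 4 ranges overlapped almost fully, and 9 of the 24 High mice exceeded the median Low mouse. The means were 106 ± 41.8 in High and 99.8 ± 25.4 in Low, a log2 difference of 0.04 with a standard error of 0.13. The highest mouse was High male replicate 1, and without it the log2 difference was -0.02. The last exon minus the summed other exons differed between lines by 0.71 with it and by 0.79 without it.

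Per kilobase of annotated exon, the last exon had 109 ± 26.9 normalised counts in High and 66.5 ± 21 in Low mice. The other exons had 7.06 ± 2.79 and 6.66 ± 1.7 over 14.98 kilobases. The last exon therefore made up most of the Acaca signal in both lines: its share of the exon sum was 68.6 ± 9.04% in High and 57.5 ± 10.7% in Low mice. The median share was 68.4% in High females, 70.5% in High males, 61.1% in Low females and 60.1% in Low males. Over all genes pooled, last exons held 54.7 ± 2.57% of a High library and 54.3 ± 2.36% of a Low library.

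**Figure D1:**
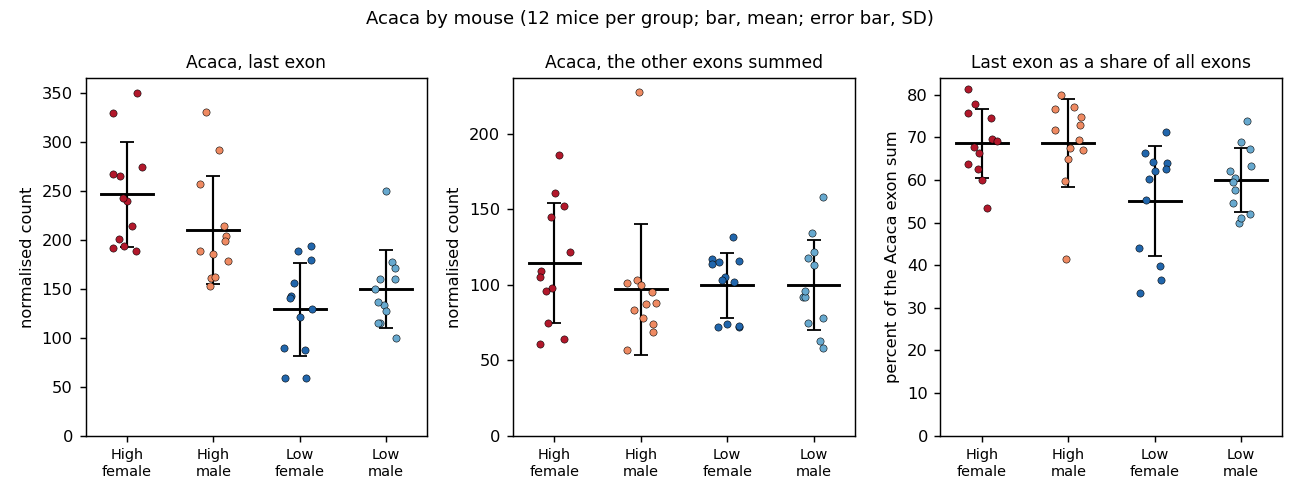
Each point is 1 mouse (12 per group). The panels show the normalised count of the Acaca last exon, that of the other 60 exons summed, and the last exon's share of the exon sum in percent; bars are group means and error bars SDs. The last exon ran from 153 to 350 in High mice and from 59 to 250 in Low mice, while the summed other exons overlapped (57 to 228 and 58 to 158).

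The whole-gene value followed the last exon. Its lowest, median and highest mice had 255, 362 and 500 normalised counts in High females and 247, 280 and 416 in High males. Low females had 158, 217 and 306, and Low males 157, 238 and 369. The means were 334 ± 69.9 in High and 239 ± 52 in Low, a ratio of 1.4, and the fitted log2 difference was 0.48 with a standard error of 0.081. Each of the 24 High mice exceeded the median Low mouse, and 9 of them the highest one. Over all 15350 tested genes, 0.28% were called between lines.

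Exon by exon, 35 of the 61 Acaca exons were high enough to be tested. Of the 34 tested exons before the last, 13 had a line difference above 0 and 21 below 0, with a median of -0.08 and a range from -0.68 to 0.66. In 4 blocks of 15 exons from the 5′ end, the summed means in High and Low were 8.75 ± 4.66 and 9.5 ± 5.75 in the first block. They were 17.4 ± 12 and 15.3 ± 7.07 in the second, 19.5 ± 11.1 and 21.5 ± 9.24 in the third, and 60.1 ± 21.4 and 53.4 ± 14.3 in the fourth. Values were higher toward the 3′ end in both lines, and within each block the lines differed by less than 1 SD of the mice. The exon just before the last, exon 60, had means of 8.17 ± 3.47 in High and 10.2 ± 4.4 in Low, opposite in sign to the last exon.

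Exon 57, singled out after its values were seen, is a weak exon that starts at mm9 position 84195930. Its mean was 3.58 normalised counts in High females and 0.833 in High males, against 0.417 in Low females and 1.33 in Low males. It was at 0 in the median library and above 0 in 22 of 48 libraries. At these counts the values are close to the limit of what the libraries resolve.

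**Figure D2:**
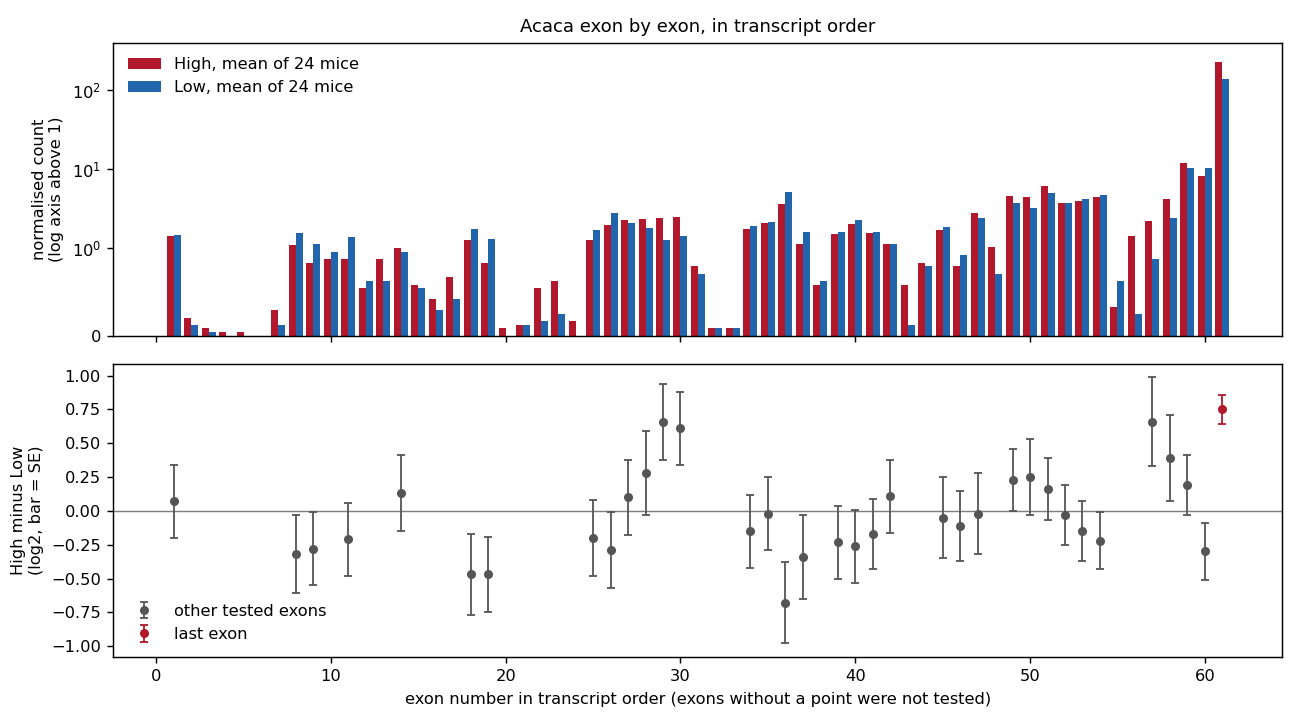
The x axis numbers the 61 Acaca exons from 5′ to 3′. The upper panel shows mean normalised counts of High and Low mice (24 each; the axis is logarithmic above 1), and the lower panel the fitted High minus Low log2 difference with its SE for the 35 tested exons. The last exon stands at 228 against 139 and at 0.75, and the other tested exons lie on both sides of 0, from -0.68 to 0.66.

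The line difference of Acaca was larger in females than in males as a value, but the difference between the genders did not pass adjustment. For the gene it was 0.65 on the log2 scale in females and 0.30 in males, an interaction of 0.35 (95% interval 0.03 to 0.67, unadjusted p = 0.0346, adjusted p = 1 over all genes, limma). For the last exon it was 1.01 and 0.49, an interaction of 0.52 (unadjusted p = 0.0227, adjusted p = 0.986 over all exons, limma). In use of the last exon relative to the rest of the gene the interaction was 0.42, with an unadjusted p of 0.0206 and an adjusted p of 1 (limma diffSplice). Low females contributed the lowest values: 4 of the 12 lay below every mouse of the other 3 groups, the lowest of which was at 100. No difference between females and males was called with the lines averaged. The gene's female minus male difference was 0.06 (interval -0.1 to 0.22, adjusted p = 0.982, limma), and of its 35 tested exons none was called and 1 had an unadjusted p under 0.05. Over all genes, 0.0782% were called between genders and 0% for the interaction, and over all exons 0.0653% and 0%.

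The genes next to Acaca on chromosome 11 were not called between lines. On the upstream side, Tada2a, a subunit of histone acetyltransferase complexes that lies on the opposite strand, had 681 ± 79.7 normalised counts in High and 724 ± 70 in Low mice. On the downstream side, Aatf, a nucleolar factor on the opposite strand, had 302 ± 31.9 and 296 ± 34.2. None of the 3 nearest tested genes on either side (Synrg, Dusp14, Tada2a, Aatf, Mrm1 and Dhrs11) passed, with adjusted p from 0.318 to 0.894 (limma). Unadjusted p was under 0.05 for 3 of the 6: 0.00962 for Mrm1, 0.0259 for Dusp14 and 0.045 for Tada2a (log2 differences of -0.18, 0.16 and -0.09). Chromosome 11 also carries Acly, Fasn and Srebf1, so that 4 of the 10 members lie on it, against 7.95% of all tested genes. Of the 43 genes called between lines over the genome, 13 lie on chromosome 11.

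Genes whose values went most closely with Acaca from mouse to mouse were found by correlating deviations from the group means over 48 mice, as a description. With the whole-gene value the closest were Csf1 (Pearson r of 0.59), 2610507B11Rik (0.54), Mpped1 (0.50), Dip2a (0.50) and an unnamed gene (0.49), with line differences from -0.17 to 0.05. The closest to the last exon was Ptrh2, a mitochondrial peptidyl-tRNA hydrolase, with a Pearson r of 0.74, followed by Surf1 (0.63), Tubd1 (0.61), Snhg12 (0.58) and Lgals9 (0.54). Ptrh2, Tubd1 and Lgals9 are on chromosome 11 too. Their lowest listed exon starts, whatever the strand, lie 2.28, 2.15 and 5.44 megabases from the Acaca last exon start on mm9. Ptrh2 had 332 ± 60.5 normalised counts in High and 255 ± 37.9 in Low mice, a log2 difference of 0.36 with an adjusted p of 0.00749 (limma). Lgals9, a secreted galectin, had 69.1 ± 15.1 and 46.2 ± 21.5, a difference of 0.62 with an adjusted p of 0.0332. Tubd1, delta tubulin, had 59.1 ± 28.5 and 44.9 ± 14.6 and did not pass (adjusted p = 0.641). Surf1 and Snhg12, on chromosomes 2 and 4, had line differences of -0.02 and -0.01.

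The other Acaca exons went with a different set. Among the closest genes were Prrc2c (r = 0.81), Arhgef11 (0.79), Ankrd52 (0.79) and Dnmt1 (0.78), none of them on chromosome 11, with line differences from -0.09 to 0.03. Between mice of a group no relation was found between the last exon and the summed other exons. Pearson r was -0.03 (permutation p = 0.812) and Spearman rho -0.02 (permutation p = 0.874), and r was 0.02 without the 2 mice farthest from the median. Within groups r was 0.18 in High females, -0.24 in High males, -0.32 in Low females and 0.33 in Low males. All these profiles share their libraries and the scaling of each library.

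Among the 10 genes, Scd2 had by far the highest level per kilobase of annotated exon and the carboxylases the lowest. Over 48 mice the mean was 1689 ± 251 normalised counts per kilobase for Scd2, 437 ± 82.9 for Acly, 432 ± 62.5 for Acsl3 and 362 ± 37 for Elovl5. It was 247 ± 42 for Fasn, 192 ± 35.5 for Scd1, 136 ± 18.1 for Srebf1 and 71.4 ± 6.41 for Elovl6. Acaca had 16.8 ± 4.56 and Acacb, the carboxylase isoform bound to mitochondria, 6.96 ± 2.65. Acly and Acsl3 could not be ordered, since Acly was the higher in 24 of 48 mice. Every other neighbouring pair kept its order in at least 41 mice. Length was counted over all annotated exons of a gene, which lowers the value of a gene such as Acaca that is read mainly at its 3′ end.

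None of the other 9 genes was called between lines: 5 had differences above 0 and 4 below 0, with a median of 0.035 and adjusted p of at least 0.534 (limma). Over all tested genes the median was -0.003 and 0.28% were called. The differences ran from -0.19 for Acacb to 0.09 for Elovl5, and 1 of the 9 had an unadjusted p under 0.05. By gender none was called either, with differences from -0.06 to 0.07 and adjusted p of at least 0.982, and none for the interaction, with differences from -0.23 to 0.22. In each gender the ranges of High and Low mice overlapped for all 9. They did so for Acaca too, so overlap does not set these genes apart.

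The enzymes ahead of and after the carboxylase step overlapped between the lines. Acly had 1847, 2309 and 2737 normalised counts in the lowest, median and highest High female and 1760, 2204 and 4181 in High males. Low females had 2013, 2346 and 2816, and Low males 1797, 2028 and 2569. The mouse at 4181 was High male replicate 1, and the line difference was 0.07 on the log2 scale (95% interval -0.07 to 0.20, adjusted p = 0.83, limma). Fasn had 2213, 2638 and 3106 in High females and 2128, 2499 and 4502 in High males, the last again High male replicate 1. In Low females it had 2072, 2747 and 3431, and in Low males 2019, 2598 and 3730. Its line difference was -0.03 (interval -0.16 to 0.09, adjusted p = 0.92).

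Acacb was the weakest and the most variable member. Its lowest, median and highest values were 19, 63 and 107 in High females, 24, 58.5 and 113 in High males, 28, 74 and 115 in Low females, and 42, 68.5 and 113 in Low males. The coefficient of variation over all mice was 38.1%, against 8.97% for Elovl6, the steadiest. Its line difference of -0.19 had an interval from -0.49 to 0.11 (adjusted p = 0.773, limma).

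The desaturases did not pass in any contrast. Scd1 had group medians of 930 in High females, 984 in High males, 886 in Low females and 1014 in Low males, within a range from 563 to 1280. Its line difference was 0.08 (interval -0.07 to 0.24, adjusted p = 0.815, limma). Scd2 had medians of 8806, 9600, 9447 and 8682 in the same order, within a range from 6590 to 13056, and a line difference of 0.04 (interval -0.08 to 0.16, adjusted p = 0.907). Of the words of 25 bases in these 2 genes, 9.97% and 8.57% occur in other genes, most often Scd3, so part of their reads could have been assigned to a relative.

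The elongases, the synthetase and the transcription factor gave the narrowest intervals. Elovl5 had medians of 1332, 1328, 1328 and 1237 in the same order and a line difference of 0.09 (interval 0.00 to 0.17, unadjusted p = 0.0461, adjusted p = 0.534, limma). Elovl6 had medians of 437, 458, 456 and 457 and a difference of -0.05 (interval -0.12 to 0.03). Acsl3 had medians of 1867, 2028, 1986 and 1736 and a difference of 0.03 (interval -0.08 to 0.15). Srebf1 had medians of 757, 743, 788 and 779 and a difference of -0.03 (interval -0.14 to 0.08).

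**Figure D3:**
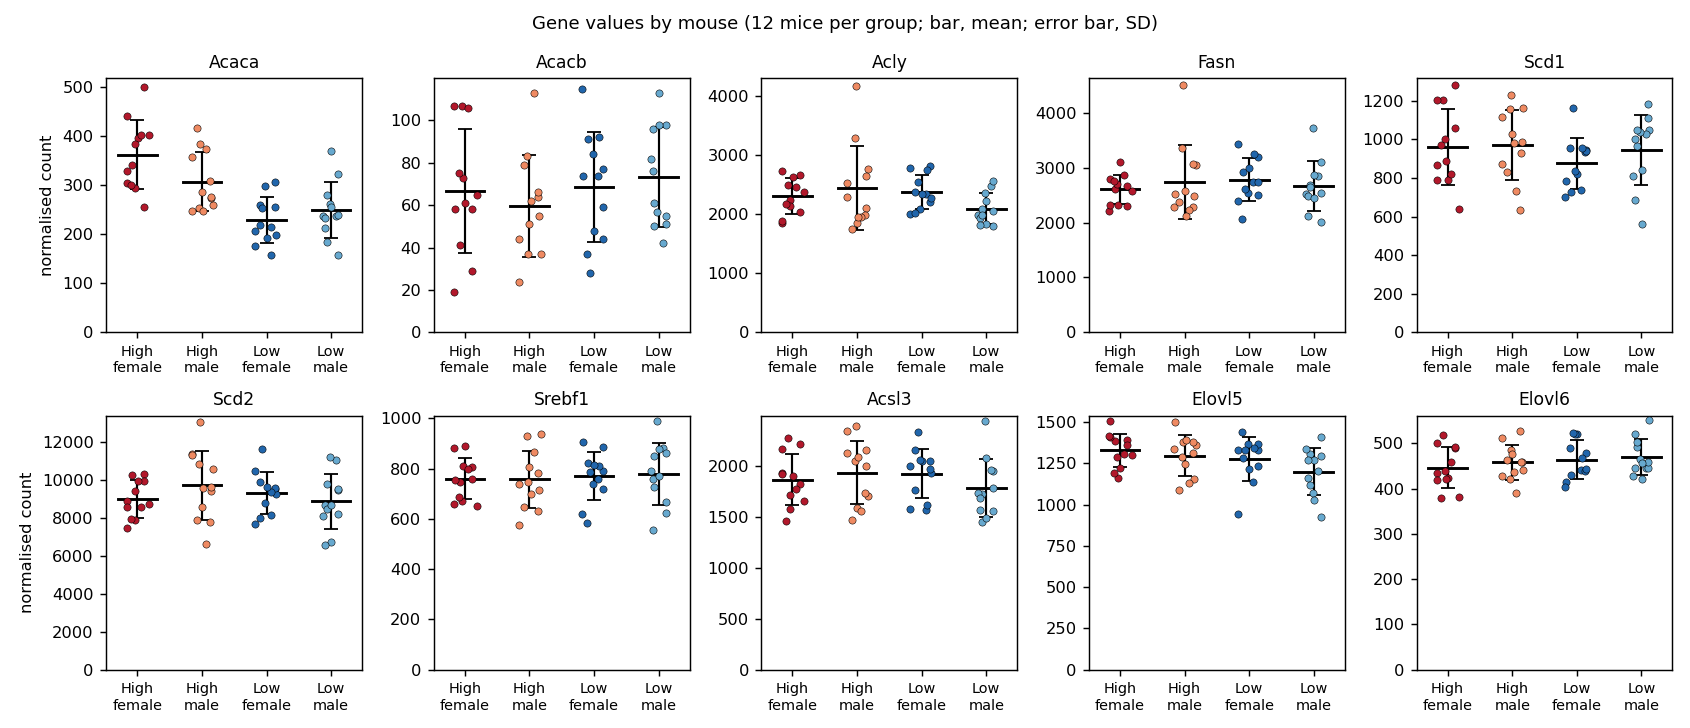
Normalised counts of the 10 genes in each mouse (points), with the mean and SD of each group of 12 (bars and error bars). Acaca is shifted between the lines (means of 334 and 239), the other 9 genes overlap across the 4 groups, and the single high points of Acly (4181) and Fasn (4502) are High male replicate 1.

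**Figure D4:**
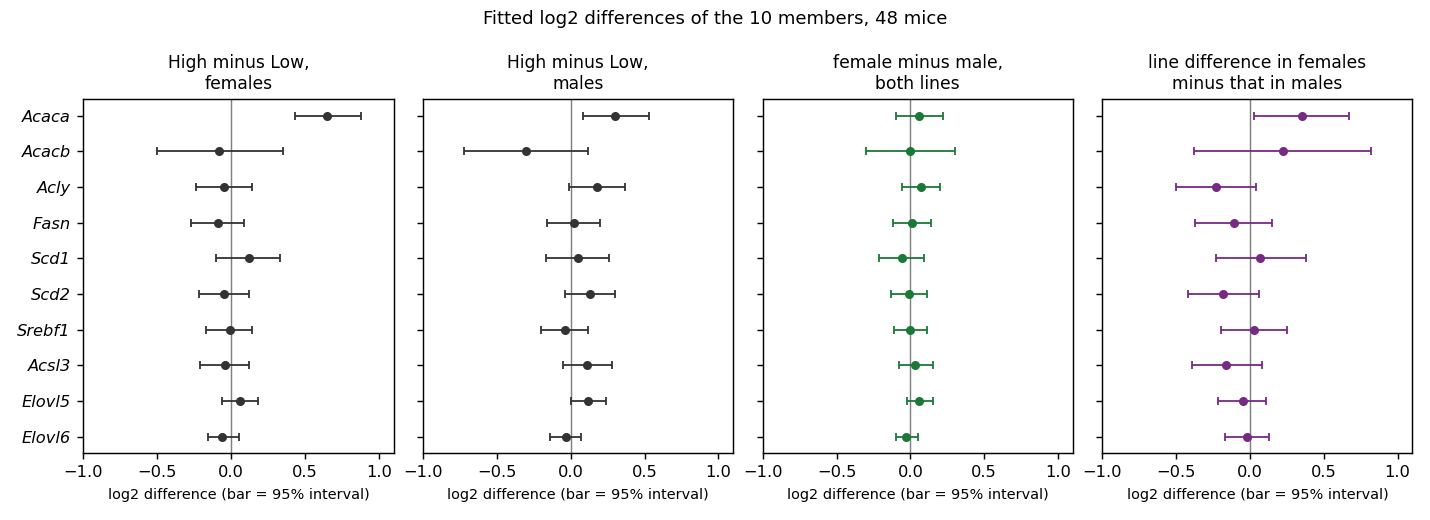
Fitted log2 differences with 95% intervals for each gene: High minus Low in females and in males, female minus male, and the interaction. Acaca lies at 0.65 in females and 0.30 in males, and the other 9 genes lie between -0.30 and 0.18 in these 2 panels.

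Their exons gave no call. Across the 9 genes 144 exons were tested, and none was called between genders or for the interaction. None of the 9 was called for exon use, with Simes adjusted p of at least 0.995 in all 3 contrasts (limma diffSplice), where 0.177% of genes were called for line, 0.034% for gender and 0.0068% for the interaction. Their last exons differed between lines by -0.19 (Acacb) to 0.09 (Elovl5). In Fasn, 3 of the 40 tested exons before the last were above 0 and 36 below 0, with a median of -0.15, beside -0.01 for its last exon. Of such exons, 11 of 15 in Srebf1, 13 of 16 in Acacb and 5 of 5 in Scd2 were below 0, while 6 of 7 in Elovl5, 17 of 29 in Acly and 10 of 16 in Acsl3 were above 0. Exons of a gene come from the same libraries, so these signs are not independent observations, and they were not tested. Summed, the Fasn exons before the last had 1410 ± 576 normalised counts in High and 1464 ± 432 in Low mice.

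Some members moved together from mouse to mouse, and their start regions are shown for the 3 on chromosome 11 that did: Acly, Fasn and Srebf1. Each line gives the 250 bases before a RefSeq transcription start on the minus strand of GRCm38.p6, 5′ to 3′. Capitals mark CCAAT, the box bound by NF-Y, and GGGCGG, the box bound by Sp1 and its relatives, on either strand.
Acly, chr11:100528001-100528250: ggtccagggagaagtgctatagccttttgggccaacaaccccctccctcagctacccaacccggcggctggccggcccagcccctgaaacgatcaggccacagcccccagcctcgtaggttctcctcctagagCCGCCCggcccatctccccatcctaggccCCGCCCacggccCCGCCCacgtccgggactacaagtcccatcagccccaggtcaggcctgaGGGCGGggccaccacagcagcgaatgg
Fasn, chr11:120824548-120824797: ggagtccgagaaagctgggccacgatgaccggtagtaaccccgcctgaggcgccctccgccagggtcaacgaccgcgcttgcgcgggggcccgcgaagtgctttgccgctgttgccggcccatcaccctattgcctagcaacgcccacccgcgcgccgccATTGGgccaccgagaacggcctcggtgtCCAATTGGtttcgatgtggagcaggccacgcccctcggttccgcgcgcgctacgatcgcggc
Srebf1, last of 3 listed starts, chr11:60210472-60210721: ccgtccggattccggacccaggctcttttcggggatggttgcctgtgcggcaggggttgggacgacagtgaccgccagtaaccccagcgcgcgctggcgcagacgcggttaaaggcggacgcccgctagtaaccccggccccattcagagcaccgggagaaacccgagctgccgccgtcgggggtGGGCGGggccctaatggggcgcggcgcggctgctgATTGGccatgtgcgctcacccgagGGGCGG
The Acly window holds GGGCGG 4 times and no CCAAT, the Fasn window CCAAT 3 times (a pair of them overlapping on opposite strands) and no GGGCGG, and the Srebf1 window holds 1 and 2. Among all 32851 listed starts, 33.8% have CCAAT and 32.7% have GGGCGG in the same window. The E-box CACGTG, found in 6% of windows, and the sterol element TCACNCCAC, found in 1.1%, were searched on both strands too and are not in these letters. RefSeq entries matched 8 of the 10 genes, and Scd1 and Scd2 had none. Of the windows not printed, Srebf1 start 1 holds CCAAT 1 time and no GGGCGG, and Srebf1 start 2 GGGCGG 2 times and no CCAAT. Acsl3 has CCAAT 1 time and GGGCGG 5 times, and Acacb CCAAT 1 time. Elovl5 has CCAAT 2 times and CACGTG 1 time. The windows of Acaca and Elovl6 have none of the 4 motifs. Acaca has 1 listed start, and its window (chr11:84195188-84195437) lies inside the gene, downstream of its first listed exons. Motifs at the 5′ end of Acaca were therefore not searched. In the Elovl6 window, 129 of the 250 bases lie in annotated exons of Elovl6 or Gm35986. The part of these motifs in the relations between members was not tested. The relations of Srebf1 with Acly and with Fasn did not pass once a library measure, given below, was regressed out (r = -0.16 and 0.08).

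Acly and Fasn were the closest pair. Over 48 mice, as deviations from the group means, Pearson r was 0.84 and Spearman rho 0.83 (adjusted permutation p = 0.000128 for both, over 64 relations). It was 0.75 without the 2 mice farthest from the median, 0.78 without High male replicate 1, and within groups it was 0.82 and 0.92 in females and males of the High line and 0.88 and 0.69 in those of the Low line. Fasn with Srebf1 had an r of 0.57 (rho 0.57, adjusted p = 0.000996), and Acly with Srebf1 0.41 (rho 0.43, adjusted p = 0.025). Both were high in Low females (0.89 and 0.84) and low in High females (0.12 and 0.10), a contrast that was not tested.

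Scd1, Scd2 and Acsl3 also moved together. Scd2 went with Acsl3 at r = 0.71 (rho 0.71) and with Scd1 at r = 0.70 (rho 0.68), and without the 2 mice farthest from the median r was 0.72 and 0.64 (adjusted permutation p = 0.000128 for both over all mice). Within the 4 groups r ran from 0.55 to 0.82 for Scd2 with Acsl3 and from 0.46 to 0.80 for Scd2 with Scd1. These genes were not separate from Acly and Fasn, and no clustering was run. Scd2 also went with Acly (r = 0.68, rho 0.67) and with Fasn (r = 0.51, rho 0.44, adjusted permutation p = 0.00492). Acsl3 went with Elovl5 (r = 0.47, rho 0.47, adjusted p = 0.00492) and with Acly (r = 0.40, adjusted p = 0.0339). The relation of Acsl3 with Acly missed by Spearman (rho 0.33, adjusted p = 0.0876). Acacb went the opposite way: its r was -0.58 with Scd2, -0.56 with Scd1, -0.56 with Elovl6, -0.49 with Acsl3 and -0.41 with Elovl5, with rho from -0.59 to -0.37. These 5 relations were negative in each of the 4 groups, and their adjusted permutation p ran from 0.000128 to 0.0151. In all, 17 of the 45 pairs among the 10 genes passed, 12 of them positive, and without High male replicate 1 it was 15. As a background, the median r of each member with all 15349 other tested genes lay between -0.07 and 0.05. The share of those genes with an r beyond 0.5 in either direction was 26.1% for Scd2, 20.5% for Acsl3, 19.8% for Fasn, 18.8% for Acly and 15.8% for Acacb, and 0.1 to 6% for the other 5 members. Values of this size with Scd2, Acsl3, Fasn, Acly or Acacb were therefore common among all genes.

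Acaca was compared by its gene value, its last exon and its other exons. The r of its gene value with the other 9 genes ran from -0.28 to 0.16 and none passed. Its last exon was within -0.27 and 0.05 of all 9, and none passed. Its other exons did pass, with Fasn (r = 0.62, rho 0.55, adjusted permutation p = 0.00032), Acly (r = 0.50, rho 0.41, adjusted p = 0.0046) and Acacb (r = 0.37, rho 0.38, adjusted p = 0.0475). Without High male replicate 1 these were 0.50, 0.34 and 0.50, and Acly no longer passed (adjusted p = 0.0524).

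A measure of the libraries moved with part of this. The pooled last exon share, the percentage of all exon counts that falls in the last exon of each gene, ran from 46.8 to 59.6% over the mice, and its lowest value was in High male replicate 1. Fasn fell as that share rose, with r = -0.92 (rho -0.92, permutation p = 1e-05, the smallest these permutations can give, adjusted p = 0.000171), and so did Acly (r = -0.81, rho -0.83), Acaca's other exons (-0.68, rho -0.61), Srebf1 (-0.59, rho -0.56) and Scd2 (-0.53, rho -0.49). The first 3 were -0.89, -0.75 and -0.59 without High male replicate 1. Acaca's last exon had an r of 0.27 with the share (rho 0.22, adjusted p = 0.214). With the share regressed out of the deviations, r between Acly and Fasn was 0.40 (adjusted permutation p = 0.028). It was 0.08 for Fasn and Srebf1, -0.16 for Acly and Srebf1 and -0.03 for Fasn and Acaca's other exons, and none of these 3 passed. Scd2 with Acsl3 was then 0.73, Scd1 with Scd2 0.72 and Acacb with Scd2 -0.77. Acaca's other exons then passed with Scd2 (-0.52, adjusted p = 0.00208), Scd1 (-0.47, adjusted p = 0.00768) and Acsl3 (-0.36, adjusted p = 0.0473). Before that step these 3 values were 0.04, -0.22 and -0.12, and none passed. With Acacb they kept 0.38 (adjusted p = 0.0274). Acaca's last exon with its other exons was 0.21 (adjusted p = 0.304). The part of this share in the relations was not tested further.

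Marker scores, the mean log2 value of a cell type's listed markers, were compared with the same profiles, in 120 relations together with the share. The astrocyte score, from 13 markers, was the one that most members followed. It had r = 0.65 with Acsl3, 0.62 with Scd2, 0.60 with Elovl5, 0.49 with Scd1 and 0.47 with Elovl6 (rho from 0.46 to 0.67, adjusted permutation p from 0.000171 to 0.0092). It had r = -0.70 with Acacb (rho -0.70, adjusted p = 0.000171) and -0.43 with Acaca's other exons (rho -0.43, adjusted p = 0.0268). These 7 also passed without High male replicate 1, and without the 2 mice farthest from the median score r for Acsl3 was 0.62 and for Acacb -0.65.

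The myelin score, from 15 markers, went with the desaturases: r was 0.50 for Scd2 (rho 0.44, adjusted permutation p = 0.0061) and 0.49 for Scd1 (rho 0.54, adjusted p = 0.00797). Acacb had -0.40 (rho -0.33, adjusted p = 0.0415), and missed by Spearman (adjusted p = 0.116). Without the 2 mice farthest from the median score, r was 0.43 for Scd1, which still passed, and 0.37 for Scd2 and -0.28 for Acacb, which did not, so these 2 relations rest in part on those mice. The oligodendrocyte precursor score had r = 0.61 with Scd2, 0.45 with Scd1, 0.38 with Acsl3 and -0.38 with Acacb (rho 0.61, 0.43, 0.39 and -0.46). Of the remaining scores, microglia passed with Elovl6 (r = 0.40), but missed by Spearman (rho 0.37, adjusted permutation p = 0.0628). The pyramidal neuron score, from the 4 tested of 8 listed markers, ran from 6.099 to 9.267 over the mice, with Low male replicate 6 highest. It passed with Elovl5 (-0.48, rho -0.47), Acaca (0.45, rho 0.41) and Acaca's other exons (0.49, rho 0.44, but 0.26 without the 2 farthest mice). Within groups, the Acaca relation was 0.79 in High males and 0.65 in Low males, and -0.02 and -0.10 in High and Low females. That of its other exons was 0.57, 0.68 and 0.77 in 3 groups and -0.58 in Low females, and these contrasts were not tested. Endothelial and mural cells, medium spiny neurons, leptomeninges and choroid plexus, and blood passed with none, although without High male replicate 1 Acly passed with medium spiny neurons (0.47) and with oligodendrocyte precursors (0.39). The Acaca last exon passed with no score, with r from -0.22 for medium spiny neurons to 0.30 for blood. The part of cell composition in any of these values was not tested.

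**Figure D5:**
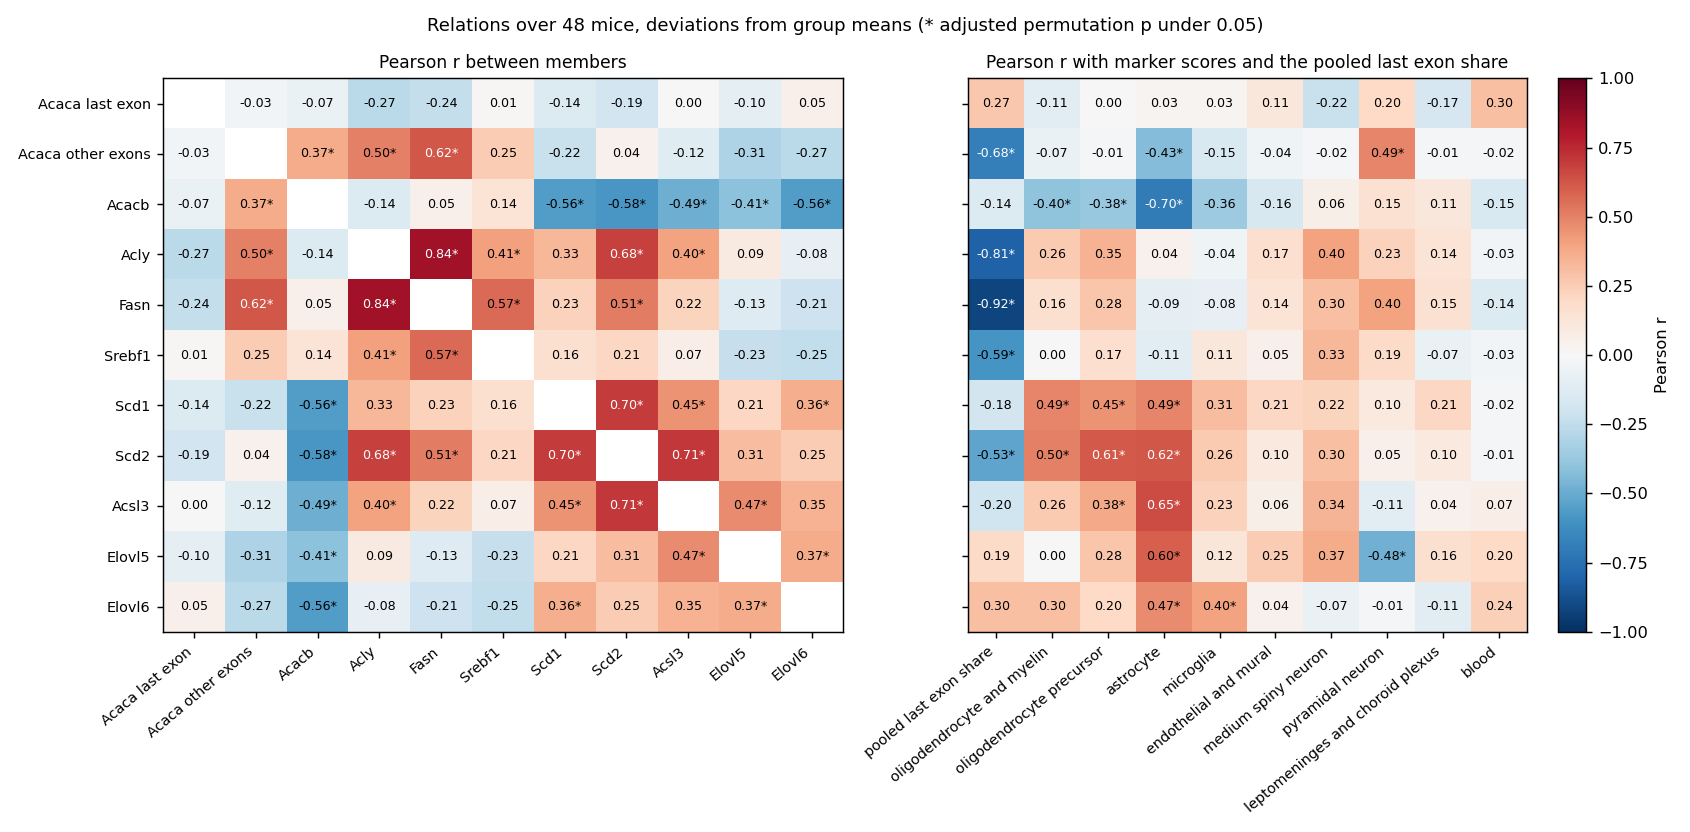
Pearson r over 48 mice, as deviations from the group means. Left, between the genes (Acaca split into its last and its other exons); right, with the pooled last exon share and 9 marker scores; stars mark an adjusted permutation p under 0.05. Acly and Fasn stand out at 0.84, Acacb is negative with 5 members, and the Acaca last exon carries no star.

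Beyond the 10 genes, 11 lists of the surrounding pathways held 146 symbols, of which 137 were tested. Of these, 1 gene was called between lines, against a background of 0.28%: Fabp5, a fatty acid binding protein, with 1387 ± 242 normalised counts in High and 1031 ± 288 in Low mice (log2 difference 0.46, adjusted p = 0.0192, limma). Across the lists 10 of the 137 genes had an unadjusted p under 0.05 for line, against 9.07% of all tested genes, 72 lay above 0 and the median was 0.001. The fatty acid binding protein list had all 3 members above 0. The lists were chosen with earlier results of these data known, so the Fabp5 call and these signs are a description. No other list had a called gene. The numbers above and below 0 were 10 and 5 for citrate, acetyl-CoA and NADPH supply, 2 and 5 for the biotin enzymes, and 11 and 12 for the control of the carboxylase and of lipogenic transcription. They were 3 and 3 for SREBP processing, 8 and 6 for elongation and desaturation, 5 and 3 for mitochondrial fatty acid synthesis, and 7 and 4 for the acyl-CoA synthetases. For cholesterol synthesis they were 9 and 11, for glycerolipid synthesis 6 and 7, and for mitochondrial fatty acid oxidation 8 and 9.

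In the list for the control of the carboxylase and of lipogenic transcription, 3 of 23 genes had an unadjusted p under 0.05 and none was called. Prkab2, a subunit of the AMP-activated kinase that phosphorylates and inhibits the enzyme, had 777 ± 79.5 in High and 714 ± 64.3 in Low mice (log2 difference 0.12, adjusted p = 0.247, limma). Thrsp, a spot 14 protein that partners a carboxylase-activating protein, had 106 ± 43.2 and 128 ± 26.6 (-0.35, adjusted p = 0.372). Slc25a1, the mitochondrial citrate carrier, from the supply list, had 700 ± 121 and 641 ± 74.1 (0.12, adjusted p = 0.531). None of the lists had a called gene for gender, where 7 of the 137 had an unadjusted p under 0.05, or for the interaction, where 15 did. Of these 15, 7 were among the 20 tested cholesterol synthesis genes, which had an interaction above 0 in 5 and below 0 in 15 and a median of -0.143. The median interaction over all tested genes was -0.003, and 2.4% of them had an unadjusted p under 0.05. The 20 cholesterol synthesis genes were measured in the same libraries, so they are not independent observations, and the list was not tested as a set.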

How the data were processed

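RNA-seq of the nucleus accumbens shell was analysed in 48 libraries, 12 per group of line and gender. Every deposited value is treated as a score, because the authors had scaled the reads counted per gene or exon and rounded the outcome; table names and column totals show this. Hence no count model was fitted and no counting interval given. The submitters' processing notes name the build mm9 and, with no role stated, STAR 2.4.0, edgeR 3.4.2, R 3.0.2, FastQC and CASAVA. How reads were counted and scaled, and with which strand setting, is not given in the sources used. Precision is limited by the number of mice and their spread, which is all that the p-values measure; families, litters or pairs are not labelled, and replicate numbers only name mice.

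Genes at 1 ppm of the mean library total (14.055 normalised counts) or more in at least 12 libraries were tested with limma 3.58.1 (mean-variance trend) on log2(value + 0.5 ppm), which left 15350. All 48 libraries entered 1 fit of 4 group means, with contrasts for line, line within each gender, gender and interaction. Fold changes on this scale understate those of weak genes. Adjusted p is Benjamini-Hochberg over all genes, called under 0.05. Exons at 0.1 ppm or more in 12 libraries (148532) were tested on log2(value + 0.05 ppm) with diffSplice and vooma precision weights. The weights were added after a test on simulated data in which the fit without them made more false calls.

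Relations between mice used deviations from group means and 100000 permutations within groups, two-sided, adjusted over 64 pairs and over 120 relations with scores. Annotation and transcripts came from GENCODE M21 and start regions from RefSeq; positions were not converted between builds. The 10 genes, the 11 pathway lists, the 10 cell type lists and the tests were chosen with earlier results of these data known. Genes named beside the members were the closest 5 for Acaca and its parts (1 of them is not reported here, and those for the other members, 3 each, are not printed), the nearest 3 tested genes on each side, and, for each list, called genes or those with the smallest p, a selection of which is printed. Exon 57 was singled out later. The adipocyte list had 1 tested gene, Retn (not called), and gave no score. Alternatives covered the pseudocounts, the filters, the scaling, library weights, High male replicate 1 and each gender alone.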

Additional observations from a re-analysis of the deposited data

How the results depend on the processing

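The Acaca description kept its direction: its log2 line difference stayed above 0 and moved by less than 1 SD of the mice under every alternative run. So did the last exon minus the other exons, at 0.71 in the main setting and 0.68 to 0.79 under the alternatives over both genders. It was 0.86 in females alone and 0.56 in males alone, and 0.99 and 0.57 by gender with the mean log2 value of the other exons. The SD is a loose limit, since for this difference it was 0.62, against a standard error of 0.18. These runs reuse the values that chose Acaca, so they describe only the dependence on processing. None of the other 9 genes was called for line, gender or interaction under any alternative run, with a smallest adjusted p of 0.431. Of 290 alternative values for the 10 genes, 10 changed sign, each close to 0: Acly -0.05, Scd2 -0.05 and Acsl3 -0.04 for line in females alone, Fasn 0.02 for line in males alone, and for female minus male Acacb 0.07 with library weights and 0.0041 with a pseudocount of 2 ppm, Srebf1 -0.00018 with that pseudocount and -0.00017 without High male replicate 1, and Scd2 0.00036 with quantile normalisation and 0.01 without High male replicate 1.

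Over all genes, 43 were called for line and 80 with library weights. For exon use, line gave 26 genes, 40 with an exon pseudocount of 0.5 ppm and 75 without precision weights. Gender gave 5 and 25 without weights. The interaction gave 1, 27 without weights, 0 with an exon filter of 0.5 ppm and 0 without High male replicate 1. The cause of these changes was not tested. Of the 10 members, 3 passed with the myelin score, and 1 without the 2 mice farthest from its median; Acacb also missed with Spearman (-0.33, adjusted p = 0.116). Without High male replicate 1 its r was -0.39, with an adjusted p of 0.0514 where that mouse was left out of the myelin relations alone and of 0.0472 where it was left out of all 120 relations. Pairs of members that passed numbered 17, 15 with Spearman, 15 without High male replicate 1 and 18 with the pooled last exon share regressed out, alternatives chosen after seeing the data. No paired analysis was possible because the labels give the groups no shared replicate numbers. Depth before scaling is unknown, so weak exons such as those at the 5′ end of Acaca carry a counting error that could not be given.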
